A study of Mus musculus with 11 samples.

Results

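Nuclear genes for the 5 enzyme complexes of oxidative phosphorylation were followed in CD4+ lymph node cells of GLC and WT mice. The genes were the protein-coding nuclear genes whose symbols begin with Ndufa, Ndufb, Ndufc, Ndufs, Ndufv, Uqcr, Cox4 to Cox8 or Atp5, or are Sdha, Sdhb, Sdhc or Sdhd. Of the 55471 genes in the count table, 94 met this rule. They comprised 36 genes of complex I (7 core and 29 accessory subunits), 4 of complex II, 8 of complex III, 19 of complex IV and 16 of complex V. The same letters also took in 8 assembly factors of complex I (Ndufaf1 to Ndufaf8) and 3 other genes, namely Cox7a2l, Atp5s and a second Atp5o entry. A further 13 genes with matching letters were not protein-coding and were left out. They were 12 processed pseudogenes and Ndufb1-ps, a non-coding entry that lay between 32.8 and 37.7 CPM (counts relative to the scaled library size) in GLC libraries and between 30.6 and 49.4 CPM in WT libraries.

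The GLC group had 6 libraries (replicates 6, 78, 9, 10, 11 and 12) from C57BL/6 mice of the genotype Pggt1bfl/flLys-Cre, in which Pggt1b is deleted in macrophages. The Lys-Cre driver uses the promoter of the lysozyme gene, which is active in macrophages and other myeloid cells, and Pggt1b encodes a subunit of an enzyme that attaches a geranylgeranyl lipid to proteins. The WT group had 5 libraries (replicates 1 to 5) from C57BL/6 mice. In both groups the cells came from inguinal and axillary lymph nodes, were purified by removing other cells with beads, and were held for 2 h with 1.25 µg/ml the plant lectin concanavalin A, which activates T cells. RNA of 2 mice was combined in GLC replicate 78. The sources used here do not give ages, litters or processing days, and nothing states whether each other library came from a separate mouse, so p-values measure the spread between these libraries. The comparison asks whether loss of Pggt1b in macrophages goes with a difference in CD4+ cells.

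Oxidative phosphorylation takes place in the inner mitochondrial membrane. Complexes I and II pass electrons from NADH and succinate to ubiquinone, complex III passes them to cytochrome c, and complex IV passes them to oxygen. Complexes I, III and IV pump protons, and complex V, the ATP synthase, uses the returning protons to make ATP. Most subunits are encoded in the nucleus and a few in mitochondrial DNA, so the complexes are built from products of both genomes. T cells rely on this pathway at rest and when they are activated. NRF1, GABP (an ETS family factor) and YY1 are transcription factors known to act on many of these nuclear genes.

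The promoters of these genes were examined first, as a description of sequence that the rule did not use. RefSeq promoter windows on GRCm38.p6, from 250 bases before to 50 bases after each start, were matched for 76 of the 94 genes, giving 81 windows. Exact matches on either strand were sought to the NRF1 motif (GCGCA and GCGC with any base between them), CCGGAAG (an ETS motif), AAGATGGC (the YY1 motif), TGACGTCA (the cyclic AMP response element) and CCAAT. Of the members' windows, 51.9% held at least 1 of the first 3 motifs, against 14.7% of all 32851 windows of the genome. The 5 windows below, 1 for each complex, were chosen because they hold several of these matches. Capitals mark NRF1 and ETS matches, and an ETS match on the other strand reads CTTCCGG. The windows lie at chr16:37654319-37654618 (Ndufb4, an accessory subunit in the membrane arm of complex I, minus strand), chr13:74350191-74350490 (Sdha, minus strand) and chr9:108936398-108936697 (Uqcrc1, plus strand). Those of complexes IV and V lie at chr5:115348909-115349208 (Cox6a1, minus strand) and chr11:115419870-115420169 (Atp5h, minus strand).
Ndufb4: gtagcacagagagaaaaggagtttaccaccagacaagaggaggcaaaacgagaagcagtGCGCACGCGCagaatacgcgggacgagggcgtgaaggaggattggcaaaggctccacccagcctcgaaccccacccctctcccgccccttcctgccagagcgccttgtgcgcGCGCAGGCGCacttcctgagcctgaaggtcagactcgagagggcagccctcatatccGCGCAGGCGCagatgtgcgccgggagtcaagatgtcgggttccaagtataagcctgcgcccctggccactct
Sdha: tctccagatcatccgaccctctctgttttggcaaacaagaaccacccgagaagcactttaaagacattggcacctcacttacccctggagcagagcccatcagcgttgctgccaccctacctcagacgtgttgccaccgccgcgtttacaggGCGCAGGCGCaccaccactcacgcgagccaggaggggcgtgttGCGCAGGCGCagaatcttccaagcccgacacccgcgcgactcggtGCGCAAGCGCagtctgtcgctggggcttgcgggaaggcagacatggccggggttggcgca
Uqcrc1: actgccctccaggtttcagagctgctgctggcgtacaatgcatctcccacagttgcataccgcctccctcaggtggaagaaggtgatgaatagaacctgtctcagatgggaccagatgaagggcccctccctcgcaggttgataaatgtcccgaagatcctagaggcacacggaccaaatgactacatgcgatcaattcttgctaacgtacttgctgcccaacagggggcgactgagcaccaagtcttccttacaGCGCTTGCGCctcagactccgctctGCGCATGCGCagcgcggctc
Cox6a1: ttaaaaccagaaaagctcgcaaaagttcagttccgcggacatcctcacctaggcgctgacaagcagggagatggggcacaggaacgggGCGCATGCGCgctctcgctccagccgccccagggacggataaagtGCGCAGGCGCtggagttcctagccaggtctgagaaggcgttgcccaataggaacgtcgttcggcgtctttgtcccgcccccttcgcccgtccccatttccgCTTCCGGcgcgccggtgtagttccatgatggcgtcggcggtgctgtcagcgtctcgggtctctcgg
Atp5h: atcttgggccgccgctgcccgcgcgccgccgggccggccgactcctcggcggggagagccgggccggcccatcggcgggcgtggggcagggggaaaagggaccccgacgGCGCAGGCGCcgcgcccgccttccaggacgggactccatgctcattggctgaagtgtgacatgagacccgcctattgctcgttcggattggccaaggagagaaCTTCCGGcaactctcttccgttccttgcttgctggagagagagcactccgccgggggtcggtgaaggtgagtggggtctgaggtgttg

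Ndufb4 and Sdha, which encodes the flavoprotein of complex II that oxidises succinate, each held 3 NRF1 matches, all before the start. Uqcrc1, a core protein of complex III, held 2 NRF1 matches, both within the 50 bases after the start. Cox6a1, a subunit of complex IV, held 2 NRF1 matches and 1 ETS match, and Atp5h, the stalk subunit d of the ATP synthase, held 1 of each. Over all members' windows, the NRF1 motif was present in 24.7%, against 4.60% of all windows. The ETS motif was in 22.2% against 8.86%, and the YY1 motif in 13.6% against 2.75%. The CCAAT letters were in 43.2% against 37.4%, and the cyclic AMP response element in 4.94% against 1.79%. Promoters of genes that passed the filter on low counts hold these letters more often, and against those 11154 windows the difference was smaller. There the 76 windows of members held NRF1 in 25% against 10.7%, ETS in 23.7% against 19.2% and YY1 in 14.5% against 4.80%, and at least 1 of the 3 in 53.9% against 30.8%. The median GC content was 58.8% in these member windows and 61% in the windows of all genes that passed. ETS and YY1 matches shared bases in 0 members, and 0 members held all 3 motifs. Such a match is a description of the letters and does not show that a factor binds there.

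The libraries held between 11308285 and 14620148 counts, and the 94 genes together took between 0.488 and 0.576 percent of them. Transcripts of T cells were abundant, with Cd4 between 295 and 366 CPM in GLC libraries and between 341 and 402 CPM in WT libraries. The 10 T cell markers summed to between 4015 and 4527 CPM in GLC libraries and between 4150 and 4729 CPM in WT libraries. Plasma cell markers summed to between 297 and 565 CPM in GLC libraries and between 174 and 436 CPM in WT libraries, B cell markers to between 48.0 and 110 CPM in GLC libraries and between 35.6 and 70.5 CPM in WT libraries, and natural killer markers to between 13.3 and 32.4 CPM in GLC libraries and between 9.47 and 19.4 CPM in WT libraries. The 13 macrophage and myeloid markers summed to at most 7.14 CPM in GLC libraries and at most 6.89 CPM in WT libraries, and S100a8 had 0 counts. Dendritic cell markers reached at most 12.8 CPM in GLC libraries and at most 10.3 CPM in WT libraries. Markers of CD8 T cells reached at most 14.4 CPM in GLC libraries and at most 13.5 CPM in WT libraries. Of 5 erythrocyte markers, 3 had 0 counts. In bulk RNA, fewer cells of a type and less RNA per cell cannot be told apart. Pggt1b itself was at 49.1 ± 6.70 CPM in GLC libraries and 39.3 ± 4.52 CPM in WT libraries (SD, n = 6 and 5), and as the deletion is described for macrophages, this level is no check of the labels. GLC replicate 9 stood apart in 4 Y-linked genes, with 633 counts against at most 1 elsewhere, and in Xist, with 11 counts against at least 2992.

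Nuclear oxidative phosphorylation genes were expressed at a wide range of levels, and 84 of the 94 passed the filter on low counts. Levels of different genes were compared as CPM per kb of annotated exon. The median over the 84 genes was 24.3 CPM per kb, against 6.12 CPM per kb over all 12404 genes that passed. The medians of complexes II, III, IV and V lay close together at 40.7, 44.3, 43.0 and 40.2 CPM per kb, above the 21.8 CPM per kb of complex I and the 5.48 CPM per kb of its assembly factors.

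**Figure D1:**
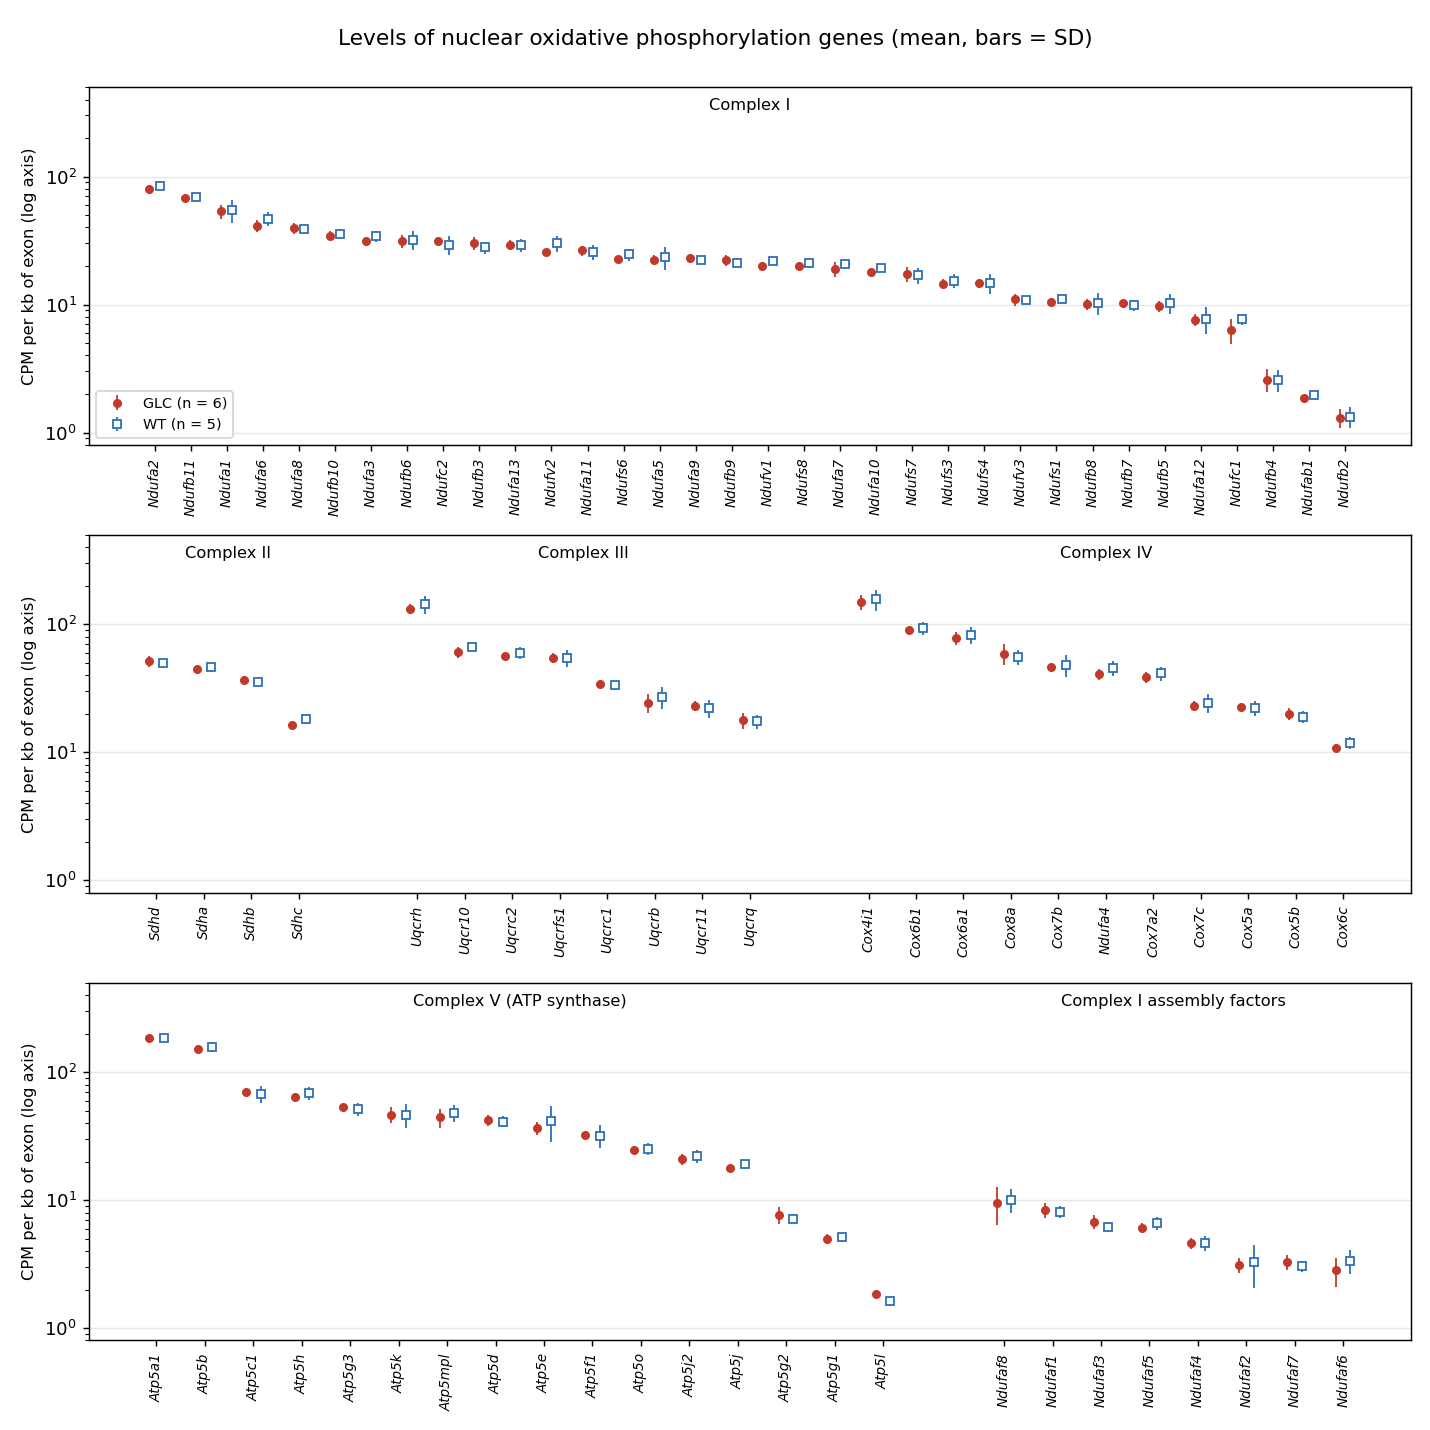
Mean level of the genes that passed the filter and are reported here, in CPM per kb of exon on a log axis, for GLC (filled circles, n = 6) and WT (open squares, n = 5), with bars showing the SD, grouped by complex and ordered by level. Levels differ far more between genes of a complex than between GLC and WT, from 1.32 to 82.6 CPM per kb in complex I and from 1.75 to 184 CPM per kb in complex V.

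The F1 part of the ATP synthase, which carries the catalytic sites, gave the highest levels. Atp5a1, the alpha subunit (chromosome 18, positions 77773729 to 77782869, GRCm38), was at 183.7 ± 5.47 CPM per kb in GLC libraries and 185.5 ± 13.4 CPM per kb in WT libraries. Atp5b, the catalytic beta subunit, was at 152.4 ± 9.22 CPM per kb in GLC libraries and 157.1 ± 14.6 CPM per kb in WT libraries. In the Fo part, the level of Atp5l, subunit g, was the lowest of the complex at 1.75 CPM per kb over all libraries. That value is uncertain, since 84.8% of the 50-base windows of its transcripts also occur in other genes, 12 of them pseudogenes, and reads from such windows can be lost or split.

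Cox4i1, the largest nuclear subunit of complex IV, was at 148.8 ± 19.5 CPM per kb in GLC libraries and 156.7 ± 28.6 CPM per kb in WT libraries. Its level and that of Atp5b differed by less than the spread between libraries. Cox5a, which sits on the matrix side of complex IV, was at 22.4 ± 1.65 CPM per kb in GLC libraries and 22.3 ± 2.91 CPM per kb in WT libraries, and Cox6c, a small membrane subunit, was the lowest of the complex at 11.2 CPM per kb. In complex III the hinge protein Uqcrh, which lies beside cytochrome c1, was highest at 137 CPM per kb and Uqcrq, a small membrane subunit, lowest at 17.6 CPM per kb. Uqcrfs1, the Rieske iron-sulfur protein, was at 54.8 ± 4.56 CPM per kb in GLC libraries and 54.7 ± 7.84 CPM per kb in WT libraries. Uqcrc1 was at 34.2 ± 1.88 CPM per kb in GLC libraries and 33.5 ± 2.06 CPM per kb in WT libraries.

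Complex II had the narrowest range. Sdhd, a membrane anchor, was highest at 50.6 CPM per kb and Sdhc, the other membrane anchor, lowest at 17.2 CPM per kb. Sdha was at 44.5 ± 1.79 CPM per kb in GLC libraries and 46.2 ± 4.02 CPM per kb in WT libraries, and the iron-sulfur subunit Sdhb at 36.7 ± 2.96 CPM per kb in GLC libraries and 35.5 ± 2.06 CPM per kb in WT libraries. In complex I, Ndufa2, an accessory subunit of the NADH-oxidising part, was highest at 82.6 CPM per kb and Ndufb2, an accessory subunit of the membrane arm, lowest at 1.32 CPM per kb. Among the core subunits, Ndufv1, which binds NADH and a flavin, was at 19.99 ± 1.33 CPM per kb in GLC libraries and 21.7 ± 1.31 CPM per kb in WT libraries. Ndufs1, the largest of the core subunits that carry iron-sulfur clusters, was at 10.5 ± 0.687 CPM per kb in GLC libraries and 11.1 ± 0.783 CPM per kb in WT libraries.

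These orders depended on the length used. Per kb of the principal transcript in place of all exons, Atp5b (342 CPM per kb), Uqcrh (310) and Cox4i1 (309) stood above Atp5a1 (234). Ndufa6 (133) then led complex I, Sdhb (70.9) led complex II, and Cox5b (35.8) and Atp5g1 (5.29) were the lowest of complexes IV and V. The medians of complexes II, III, IV and V were then 57.5, 66.5, 64.6 and 79.6 CPM per kb, further apart than per kb of exon. That of complex I was 32.9 CPM per kb, still below them. The lowest genes of complexes I, II and III were the same under all 3 lengths used, namely Ndufb2, Sdhc and Uqcrq. For these 3 genes the longest and the principal transcript gave the same level, so the third length was no separate check. Over all members, 15 had more than 25% of their 50-base windows in another gene's transcript, 46 had none, and 13 had more than 10% of their exon bases under an exon of another gene.

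The 10 genes that did not pass the filter were, with 2 exceptions, forms of complex IV subunits known from other tissues. Cox8b, found in muscle, and Cox8c and Cox7b2, found in testis, had 0 counts in all 11 libraries. A count of 0 leaves room for up to 0.0211 CPM over all libraries (3 counts, counting error only). Cox4i2, a form known from lung, had 1 count, the muscle form Cox6a2 had 4 counts, Ndufa4l2, which hypoxia induces, had 10, the muscle form Cox7a1 had 25 and the testis form Cox6b2 had 87. Each of their widely expressed counterparts passed. Mean levels in GLC and WT libraries were 230.6 and 242.8 CPM for Cox4i1, 54.6 and 58.2 CPM for Cox6a1, and 63.5 and 66.2 CPM for Cox6b1. They were 36.3 and 39.1 CPM for Cox7a2, 56.1 and 58.5 CPM for Cox7b, 36.6 and 34.3 CPM for Cox8a, and 56.5 and 62.9 CPM for Ndufa4. The 2 exceptions were the second Atp5o entry, with 0 counts and 89.8% of its windows in other genes, and Ndufs5.

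Ndufs5, an accessory subunit of complex I, had 130 counts in all. In GLC libraries its level was 0.237 CPM at the lowest, 0.479 CPM at the median and 3.29 CPM at the highest. In WT replicates 1 to 5 it was at 0.235, 0.430, 0.142, 3.47 and 0.476 CPM. GLC replicate 10 and WT replicate 4 stood above the other 9 libraries, which reached at most 0.847 CPM. Of the windows of Ndufs5, 31.1% also occur in 1 other gene, a pseudogene, and the part of such sharing in its low counts was not tested.

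No nuclear oxidative phosphorylation gene differed between GLC and WT past the threshold. At an adjusted p of 0.05 with edgeR's quasi-likelihood test, 0 of the 84 members were called higher and 0 lower, as were 0% of all 12404 genes in each direction, and the adjusted p was 0.9997 for every member. DESeq2, limma-voom and limma-voom with quality weights also called 0 members. At an unadjusted p under 0.05, 1 member was lower with edgeR, against 1.79% of all genes, and 0 were higher, against 2.75%, so that 1 of 84 stood against 4.54% of all genes in either direction. That 1 member was Ndufv2. DESeq2 and limma-voom also gave 1 member at an unadjusted p under 0.05, and limma-voom with quality weights gave 4, where 4.70%, 4.34% and 7.26% of all genes were under that p with these 3 tools. The groups of libraries did not overlap for 0 members, against 0.153% of all genes on the higher and 0.177% on the lower side. The count of 1 depended on single libraries. It was 8 of 85 without WT replicate 3, all of them lower, against 714 of 12473 genes in either direction. The share of all genes that were lower in that fit is not given here, so the 8 have no background in their own direction. The count was 3 without GLC replicate 11 (6.39% of all genes) or 12 (3.55%), 2 without GLC replicate 9 (4.87%) and 0 without WT replicate 5 (6.17%). Without WT replicate 1 it was again 1, but then Ndufv1 (log2 fold change -0.15) and not Ndufv2. With the level of Gm42418 as a covariate it was also 1, against 3.60% of all genes, but then Atp5e and with the opposite sign. Atp5e had a log2 fold change of 0.18 in that fit (unadjusted p = 0.0348, adjusted p = 0.996 with edgeR) and of -0.17 without the covariate (SE 0.15, unadjusted p = 0.292 with edgeR).

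The fold changes were small, and most of their intervals lay within 1.25-fold either way. Of the 84 log2 fold changes, 31 were above 0 and 53 below 0, against 49.9% and 50.1% of all genes, and they ranged from -0.28 to 0.19. Of the 5426 genes whose mean log2 CPM exceeded 5, 2295 were above 0 and 3131 below 0, so these too lay more often below 0. The median of the members was -0.037, against -0.00016 over all genes and -0.015 over those 5426 genes. It was 0.0097 without WT replicate 1, with 44 of 84 above 0, and 0.057 with the level of Gm42418 as a covariate, with 59 of 84 above 0. The direction of the median thus turned with that library and that covariate, and the sign of the fold change turned for 19 and 32 of the 84 members. It was -0.044 when the B cell markers entered as a covariate, and the part of the other marker lists in the members' levels was not tested. The 95% intervals lay wholly within 1.5-fold either way for 82 of the 84 members, against 70.9% of all genes, and within 1.25-fold for 60, against 46.3%. All genes include many at low levels. The median half-width of the interval was 0.20 on the log2 scale for the members and 0.25 over all genes, but 0.17 over the 5426 genes above. The exceptions at 1.5-fold were Ndufc1 and Ndufaf6, whose intervals reached -0.61 and -0.70. In 33 of 84 members all GLC libraries lay inside the range of the WT libraries, against 20.3% of all genes.

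**Figure D2:**
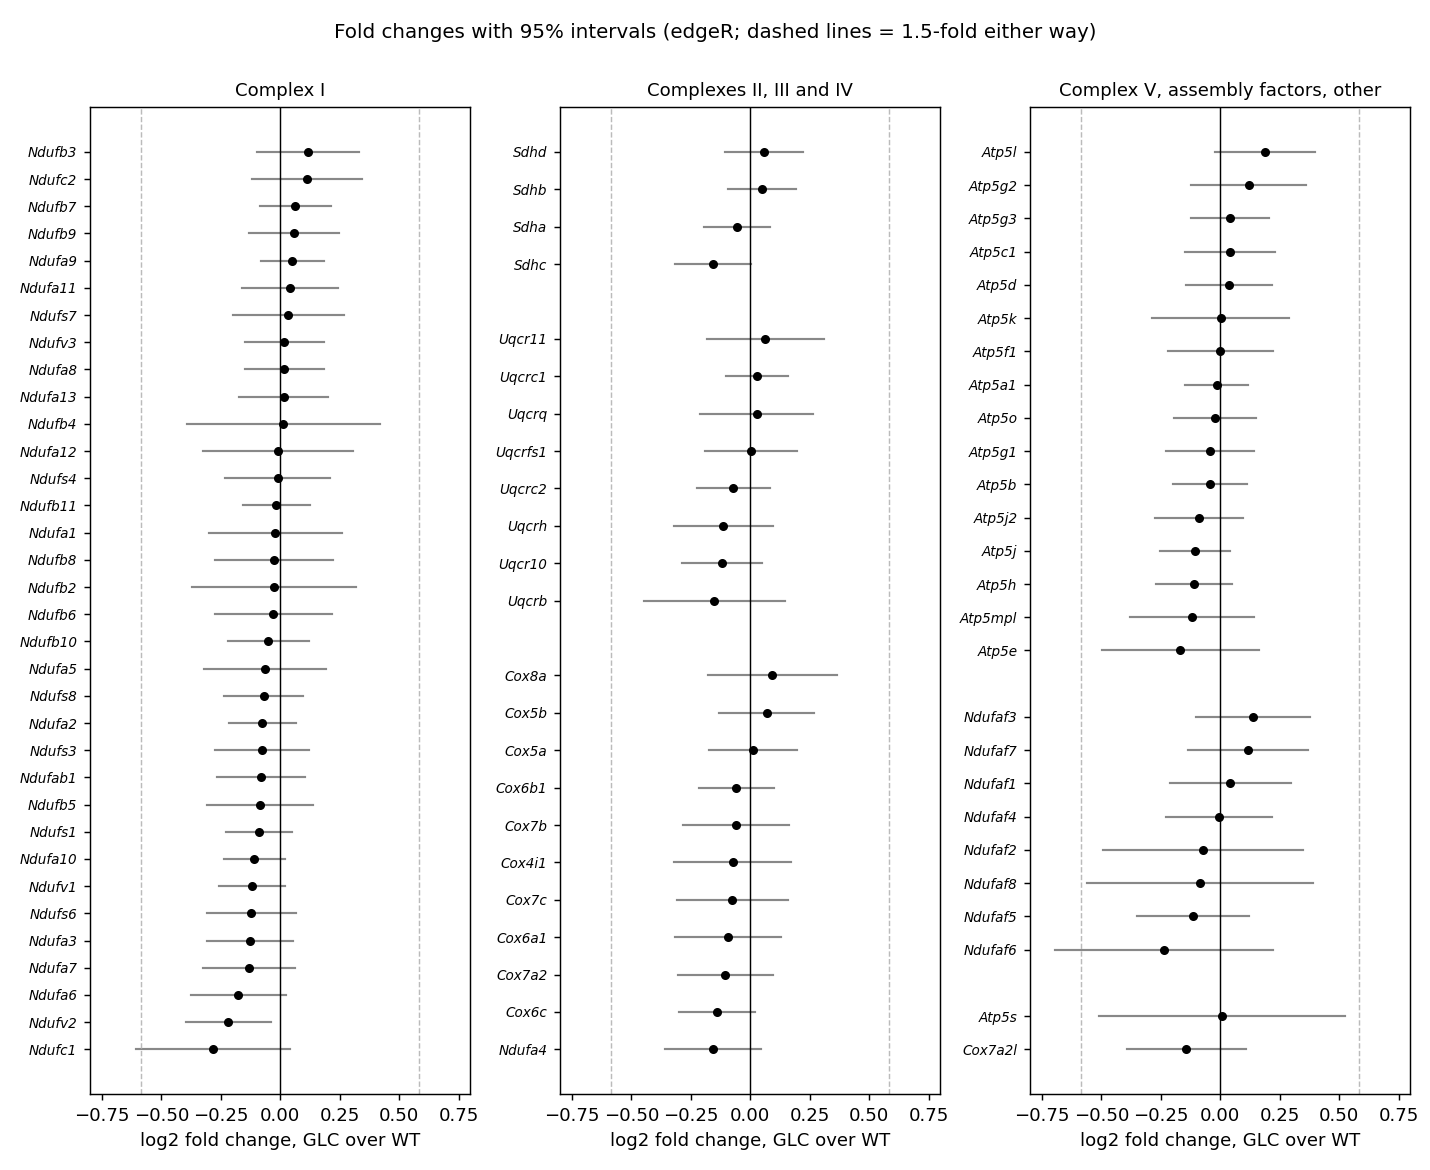
Log2 fold change of GLC over WT with its 95% interval from edgeR for the genes that passed the filter and are reported here, by complex, with dashed lines at 1.5-fold either way. The points lie between -0.28 and 0.19, and all intervals drawn but those of Ndufc1 and Ndufaf6 stay within the dashed lines.

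In complex I, 11 of 35 tested subunits had a fold change above 0 and 24 below 0, with a median of -0.029. Among its 7 core subunits 6 were below 0. Ndufv2, an iron-sulfur subunit of the NADH-oxidising part (chromosome 17, positions 66078638 to 66101559), was at 52.0, 55.6 and 58.7 CPM at the lowest, median and highest GLC library. Its values in WT replicates 1 to 5 were 76.5, 59.1, 52.6, 66.8 and 67.5 CPM. All 6 GLC libraries lay below the WT mean of 64.5 ± 9.06 CPM, but WT replicate 3 fell among them. The log2 fold change was -0.22 (SE 0.084, unadjusted p = 0.0202, adjusted p = 0.9997 with edgeR).

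Ndufv1, whose product pairs with that of Ndufv2, was at 46.5, 53.3 and 56.1 CPM at the lowest, median and highest GLC library. WT replicates 1 to 5 gave 53.3, 60.3, 57.5, 60.7 and 54.0 CPM. The ranges overlapped, all 6 GLC libraries lay below the WT mean, and the log2 fold change was -0.12 (SE 0.065). Ndufa6, an accessory subunit that holds an acyl carrier protein, was at 63.0, 75.4 and 82.8 CPM at the lowest, median and highest GLC library. The 5 WT libraries, replicates 1 to 5, were at 96.3, 81.3, 68.9, 81.8 and 91.7 CPM. Here too all 6 GLC libraries lay below the WT mean and the ranges overlapped, with a log2 fold change of -0.18 (SE 0.093). Ndufc1, a small membrane subunit, was at 6.88, 9.85 and 11.6 CPM at the lowest, median and highest GLC library. In WT replicates 1 to 5 it was at 13.2, 10.8, 10.6, 11.4 and 11.1 CPM. GLC replicates 6 and 78, at 6.88 and 6.91 CPM, were lower than all other libraries, and the log2 fold change was -0.28 (SE 0.15).

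On the higher side of complex I, Ndufb3, an accessory subunit of the membrane arm, was at 20.04, 22.50 and 28.07 CPM at the lowest, median and highest GLC library. Its values in WT replicates 1 to 5 were 23.24, 20.16, 17.97, 22.0 and 23.33 CPM. The groups overlapped widely, and the log2 fold change was 0.12 (SE 0.10). Ndufc2, also of the membrane arm, was at 20.96, 23.69 and 25.86 CPM at the lowest, median and highest GLC library. WT replicates 1 to 5 gave 27.0, 23.5, 23.1, 17.9 and 18.6 CPM. The GLC range lay inside the WT range, and the log2 fold change was 0.11 (SE 0.11). Of the 8 assembly factors, 3 were above 0 and 5 below 0. Ndufaf3 averaged 12.3 ± 1.57 CPM in GLC libraries and 11.2 ± 0.961 CPM in WT libraries, and Ndufaf7, a methyltransferase, averaged 11.6 ± 1.55 CPM in GLC libraries and 10.7 ± 1.12 CPM in WT libraries. The fold changes of both, 0.14 (SE 0.11) and 0.12 (SE 0.12) on the log2 scale, were within the spread between libraries.

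In complex II, 2 of 4 genes had a fold change above 0 and 2 below 0. Sdhc was at 49.3, 52.9 and 57.8 CPM at the lowest, median and highest GLC library. The 5 WT libraries, replicates 1 to 5, were at 63.9, 60.5, 50.9, 63.6 and 57.3 CPM. All 6 GLC libraries lay below the WT mean, WT replicates 3 and 5 lay inside the GLC range, and the log2 fold change was -0.16 (SE 0.074). Sdhd, with which Sdhc forms the ubiquinone-binding anchor, was at 56.5, 64.0 and 69.9 CPM at the lowest, median and highest GLC library. In WT replicates 1 to 5 it was at 67.6, 61.3, 53.4, 62.3 and 60.1 CPM, so the groups overlapped over most of their range.

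In complex III, 4 of 8 genes had a fold change above 0 and 4 below 0, with a median of -0.033. Uqcrh was at 144.8, 163.3 and 188.5 CPM at the lowest, median and highest GLC library. Its values in WT replicates 1 to 5 were 218, 169, 142, 176 and 180 CPM, so that the GLC range lay inside the WT range. Uqcrq was at 26.6, 32.2 and 39.5 CPM at the lowest, median and highest GLC library. WT replicates 1 to 5 gave 36.3, 27.9, 28.1, 36.3 and 31.1 CPM, inside the GLC range.

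In complex IV, 3 of 11 tested genes had a fold change above 0 and 8 below 0, with a median of -0.074. Cox6c was at 36.2, 38.5 and 40.1 CPM at the lowest, median and highest GLC library. The 5 WT libraries, replicates 1 to 5, were at 48.1, 40.5, 37.1, 39.2 and 45.7 CPM. The ranges overlapped at WT replicates 3 and 4, all 6 GLC libraries lay below the WT mean, and the log2 fold change was -0.14 (SE 0.075). Cox4i1 was at 199.4, 229.2 and 281.5 CPM at the lowest, median and highest GLC library. In WT replicates 1 to 5 it was at 314, 235, 191, 240 and 235 CPM. WT replicates 1 and 3 lay above and below the GLC range, and the other WT libraries inside it.

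In complex V, 7 of 16 genes had a fold change above 0 and 9 below 0, with a median of -0.018. Atp5a1 was at 559, 573 and 599 CPM at the lowest, median and highest GLC library. Its values in WT replicates 1 to 5 were 639, 571, 530, 605 and 563 CPM. Its coefficient of variation over the 11 libraries, 5.06%, was the lowest of the members. Atp5l was at 10.9, 12.04 and 12.78 CPM at the lowest, median and highest GLC library. WT replicates 1 to 5 gave 10.49, 11.41, 10.97, 8.911 and 10.54 CPM. The WT mean was below all 6 GLC libraries, the ranges overlapped at WT replicates 2 and 3, and the log2 fold change was 0.19 (SE 0.098), the highest of the members. Atp5g2, 1 of the genes for the proton-carrying c ring, was at 10.2, 12.8 and 15.2 CPM at the lowest, median and highest GLC library. The 5 WT libraries, replicates 1 to 5, were at 11.97, 12.55, 12.38, 11.43 and 10.95 CPM, inside the GLC range, and the log2 fold change was 0.12 (SE 0.11).

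The members varied together between libraries, and the libraries at both ends belonged to the WT group. Summed over the 94 genes, the level was 5522, 5104, 5124, 5182, 5712 and 5431 CPM in GLC replicates 6, 78, 9, 10, 11 and 12. In WT replicates 1 to 5 it was at 6310, 5369, 4828, 5565 and 5503 CPM. The GLC libraries thus lay between WT replicate 3 and WT replicate 1. The means were 5346 ± 248 CPM in GLC and 5515 ± 531 CPM in WT (SD, n = 6 and 5), and 5316 ± 336 CPM in WT without replicate 1.

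**Figure D3:**
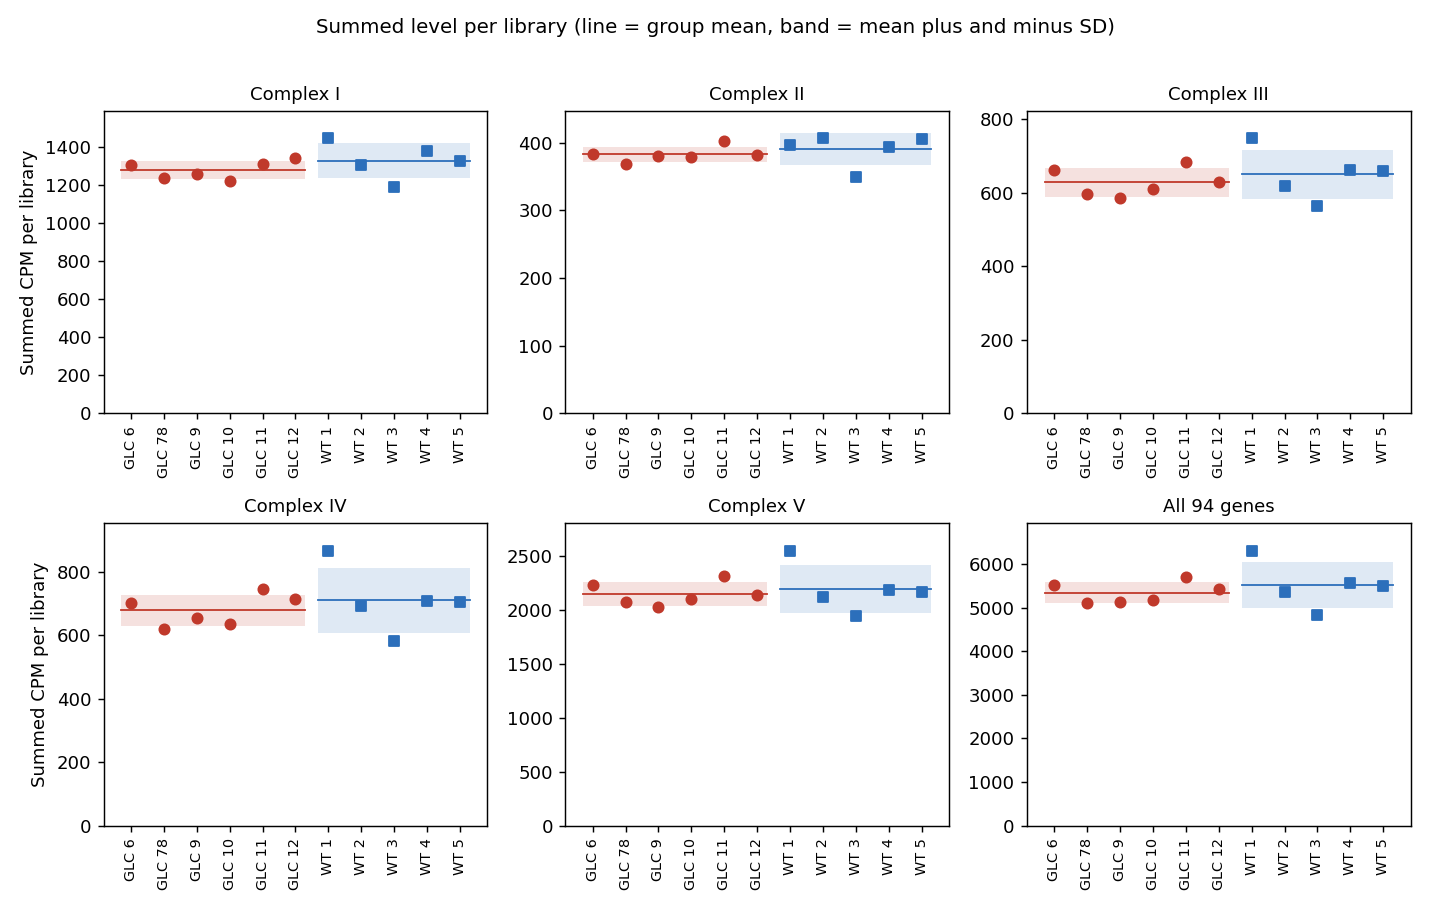
Summed CPM of the genes of each complex and of all 94 genes in each library, with a line at the group mean and a band of 1 SD to either side, for GLC (circles) and WT (squares). WT 3 is the lowest library in every panel, and WT 1 the highest in every panel but that of complex II, where WT 2 is highest at 406 CPM.

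Of the 84 members that passed the filter, 45 had their highest level of all libraries in WT replicate 1 and 34 their lowest in WT replicate 3. The share of all genes with their highest or lowest level in these 2 libraries was not counted, so these counts have no background. The median deviation of the members from their own mean over libraries was 0.19 on the log2 scale in WT replicate 1 and -0.15 in WT replicate 3. Over all genes it lay between 0.00032 and 0.014 in every library, but the scaling itself keeps that median near 0. Over all genes in the shortest quartile of transcript lengths it was 0.11 in WT replicate 1 and -0.060 in WT replicate 3. In WT replicate 1 the median deviation was 0.30 for complex IV, 0.23 for complex III and 0.23 for complex V, and 0.12 and 0.11 for complexes I and II. In WT replicate 3 it was -0.24, -0.20 and -0.19 for complexes IV, III and V, and -0.12 and -0.13 for complexes I and II. Atp5e, the epsilon subunit of the F1 part, deviated more than the median member and was named after its values were seen. It was at 57.2, 61.7 and 77.0 CPM at the lowest, median and highest GLC library. Its values in WT replicates 1 to 5 were 111.7, 67.9, 55.6, 67.7 and 58.6 CPM, so that WT replicate 1 stood above all others.

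**Figure D4:**
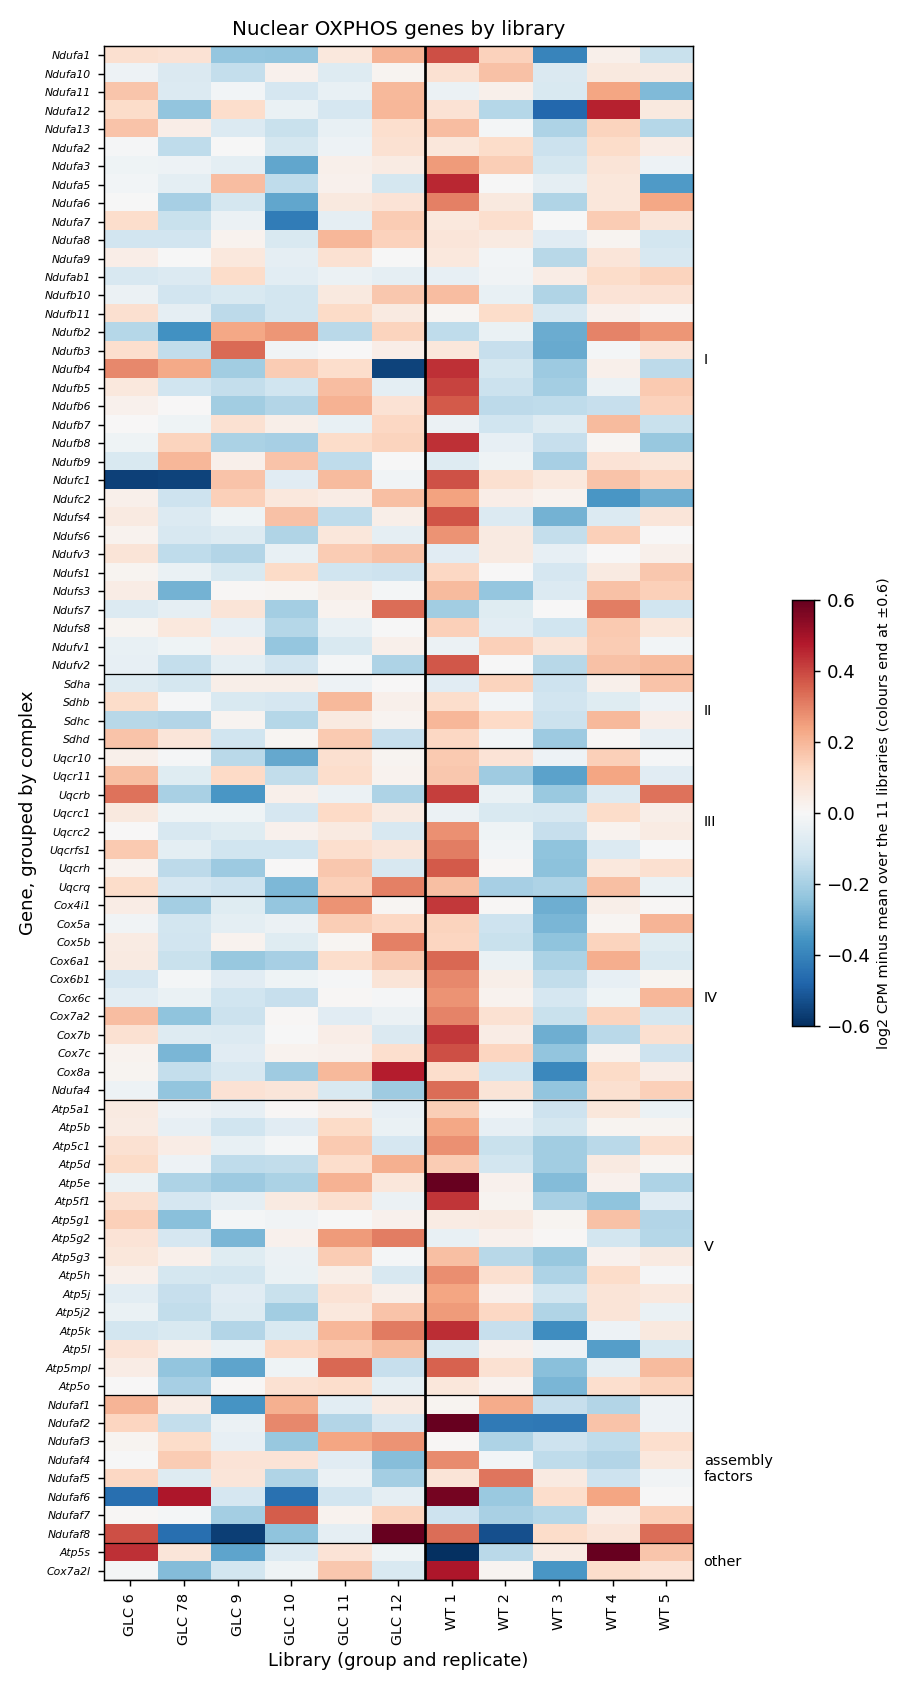
Log2 CPM of each gene that passed the filter and is reported here minus its mean over the 11 libraries, with GLC libraries left of the line and WT libraries right of it, genes grouped by complex. WT 1 is red for most genes and WT 3 blue for most, as in the counts of 45 and 34 of 84 members.

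The 3 other measures were highest in WT replicate 1, and 1 of them was lowest in WT replicate 3. Cytosolic ribosomal protein genes summed to 79115 CPM in WT replicate 1 and 46706 CPM in WT replicate 3, the highest and lowest of all libraries. The subunits encoded in mitochondrial DNA summed to 23642 CPM in WT replicate 1 and to between 10096 and 13705 CPM in the other libraries. Gm42418, a non-coding transcript known to collect ribosomal RNA reads, was at 109960 CPM in WT replicate 1 and between 57990 and 78826 CPM elsewhere. WT replicate 3, at 69318 CPM of Gm42418 and 12775 CPM of those subunits, lay within the range of the other libraries. WT replicate 1 also stood apart over all genes, since a chi-square per degree of freedom between pairs of libraries was 33.1 to 62.8 for the 10 pairs that include it and 9.48 to 23.7 for the other 45. The median deviation in WT replicate 1 was 0.26 in members with short transcripts, 0.15 in those of middle length and 0.17 in those with long ones, and over all genes the median was 0.11 in the shortest quartile of lengths and -0.054 in the longest. With mitochondrial, ribosomal protein, immunoglobulin and haemoglobin genes and Gm42418 left out before scaling, the median log2 fold change of the members was -0.038, near the -0.037 with all genes. Apart from this fit and that with Gm42418 as a covariate, the part of these measures in the members' levels was not tested.

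**Figure D5:**
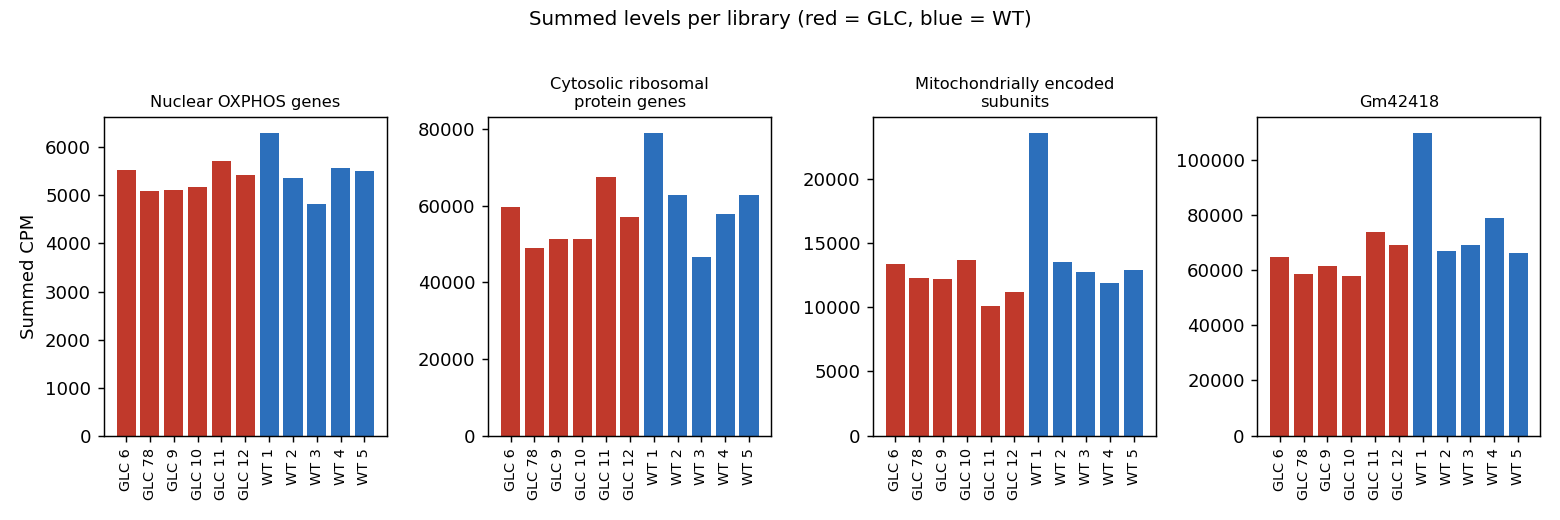
Summed CPM of the 94 nuclear genes, of cytosolic ribosomal protein genes, of subunits encoded in mitochondrial DNA, and of the transcript Gm42418 in each library, as bars from 0 (GLC in red, WT in blue). WT 1 is highest in all 4 panels, at 6310, 79115, 23642 and 109960 CPM.

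The median coefficient of variation of the members was 9.11% among GLC libraries and 11.6% among WT libraries, and 9.93% among WT libraries without replicate 1. In the same order it was 12.9%, 13.8% and 11.5% over all genes tested. Over the 5426 genes whose mean log2 CPM exceeded 5 it was lower than in the members, at 8.16%, 9.44% and 7.48%. The coefficient was larger in WT than in GLC for 61 of 84 members, and for 49 of 84 without WT replicate 1. Over all genes tested these counts were 6983 and 5324 of 12404, and over those 5426 genes they were 3349 and 2328. Atp5a1, Ndufa9, Uqcrc1 and Ndufab1 were among the least variable over the 11 libraries, at 5.06 to 5.94%, and Ndufaf8, Ndufaf2, Atp5s and Ndufaf6, all at low levels, varied most, by 24.0 to 27.1%.

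Genes that act beside the complexes showed the same lack of calls, with 0 at an adjusted p of 0.05 with edgeR in each list. Among 16 electron carriers and ubiquinone genes, 5 were above 0 and 11 below 0. This list includes Cyc1, cytochrome c1, which is itself a subunit of complex III that the rule missed. Cyc1 averaged 72.3 ± 4.43 CPM in GLC and 72.5 ± 10.6 CPM in WT, a log2 fold change of -0.0029 (SE 0.089). Etfa, a subunit of the electron transfer flavoprotein, averaged 47.1 ± 5.32 CPM in GLC and 52.6 ± 5.86 CPM in WT, a log2 fold change of -0.16 (SE 0.092). Coq8b and Coq4, both needed to make ubiquinone, had log2 fold changes of 0.20 (SE 0.12) and 0.22 (SE 0.20). Of 38 assembly factors outside the rule 16 were above 0 and 22 below 0. Sdhaf1, which helps to insert iron-sulfur clusters into Sdhb, averaged 24.0 ± 2.92 CPM in GLC and 28.4 ± 5.23 CPM in WT, a log2 fold change of -0.24 (SE 0.12). Cox20, a chaperone for complex IV, was at -0.21 (SE 0.11), and Coa5, another factor of complex IV, at -0.084 (SE 0.065).

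Of 13 citric acid cycle genes 6 were above 0 and 7 below 0, and 1 had an unadjusted p under 0.05. This was Idh3a, a subunit of isocitrate dehydrogenase, at 57.4 ± 4.76 CPM in GLC and 51.1 ± 3.11 CPM in WT, with a log2 fold change of 0.17 (SE 0.070, adjusted p = 0.9997 with edgeR). The citrate synthase gene Cs was at 0.076 (SE 0.061). Of 13 transcription factors and regulators of mitochondrial genes, 6 were above 0 and 7 below 0. Gabpb1, a subunit of GABP, was at -0.19 (SE 0.13), Tfam, which packs and transcribes mitochondrial DNA, at -0.065 (SE 0.059), and Yy1 at -0.072 (SE 0.074). The sign of Yy1 turned with Gm42418 as a covariate, to 0.024. All 3 tested carriers of ATP, ADP and phosphate were above 0, namely Slc25a4 at 0.11 (SE 0.096), Slc25a3 at 0.060 (SE 0.062) and Slc25a5 at 0.026 (SE 0.088). Slc25a5 fell below 0 without WT replicate 2 or without WT replicate 3.

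The partners encoded in mitochondrial DNA were below 0 for all 7 genes tested, with a median log2 fold change of -0.29 and 0 at an unadjusted p under 0.05. The other 6 of the 13 such genes did not pass the filter, 4 of them listed at 0 counts and 2 at 3 counts over all libraries, although cells with mitochondria use all 13. Those 6 are therefore given only as listed, and the direction rests on 7 genes. Their summed level was 12147 ± 1351 CPM in GLC libraries and 14955 ± 4893 CPM in WT libraries. Without WT replicate 1 the WT value was 12783 ± 691 CPM.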

How the data were processed

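RNA was sequenced from 11 libraries of lymph node CD4+ cells. The authors deposited raw counts of reads per Ensembl gene, which were not normalized. Reads had been aligned and counted with tools that include STAR and featureCounts, on mm10, per the submitters' processing notes. Versions, annotation, strand setting and the handling of reads with several map positions were not given in the sources used here. Genes with pseudogenes or overlapping neighbours may therefore gain or lose reads. Symbols, types, lengths and positions came from GENCODE M21 (55230 of 55471 identifiers), and promoters from RefSeq tables on GRCm38.p6.

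Testing used edgeR 4.0.16 in R 4.3.3, with filterByExpr by group (12404 genes), TMM scaling, glmQLFit and glmQLFTest over 6 GLC and 5 WT libraries, two-sided, without covariates, and Benjamini-Hochberg adjustment over all genes. CPM uses the scaled library sizes, and log2 CPM in the deviations adds a prior count of 2. Standard errors came from the quasi-likelihood F statistic. The fit was tested on simulated data. Those counts were drawn gene by gene, without shifts that the genes of a library share, and no result from them is given here. Alternatives used limma 3.58.1 (voom), DESeq2 1.42.0, other scalings, filters and covariates, lengths, and each library left out. The longest-transcript length was among the listed alternatives; the principal transcript was added after seeing the data. Pairs of libraries differed by a chi-square per degree of freedom of 9.48 to 62.8, highest for pairs with WT replicate 1, so none was counted as a copy.

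The members and lists were chosen with earlier results of these data known. Values are given for the 6 members of smallest p in each direction, the highest and lowest member of each complex, set core subunits, members that failed the filter, and 3 genes of smallest p of each further list, of which some genes are not reported here; Atp5e and the most and least variable members were named after their values were seen. With 11308285 to 14620148 counts per library, counting error is small for most members. The floor from counts covers counting error only. The intervals of the fold changes come from the quasi-likelihood fit and include the spread between libraries.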

Additional observations from a re-analysis of the deposited data

Results flagged for a closer look

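Of 88 sets of 5 or 6 libraries examined, 3 had a library far from the others, where chance flags about 1 in 20 (5%). The summed level of complex II in WT replicate 3, 349.8 CPM, was the lowest of the WT group, with the nearest other library at 393.0 CPM. The subunits encoded in mitochondrial DNA summed to 23642 CPM in WT replicate 1, against 13538 CPM in the nearest WT library. Cs, the citrate synthase gene, was at 149.4 CPM in WT replicate 3, with the nearest WT library at 173.8 CPM. The 3 flags are no more than that share would give. The 88 sets, however, are measures of the same 11 libraries and are not independent. That share is therefore only a rough guide and does not show whether a flag arose by chance. The 3 flags fell in the WT libraries in which the most members had their highest or lowest level. The sum of complex II is made of members, so its flag is not separate from those counts.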

How the results depend on the processing

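No paired analysis was possible because the groups share no replicate numbers. The count of members called stayed at 0 under every alternative run. The count at an unadjusted p under 0.05, 1 as reported, was 2 with no filter beyond at least 1 count, the second being Cox6a2 with 4 counts, and 4 with limma-voom and quality weights. With single libraries left out it was between 0 and 8. Of all genes, 1 was called with no such filter and 2 with DESeq2, against 0 as reported. The median log2 fold change of members was 0.057 with Gm42418 as a covariate and between -0.081 (without WT replicate 3) and 0.0097 (without WT replicate 1) with a library left out. The median level of members, 24.3 CPM per kb of exon, was 33.7 with the longest transcript and 48.3 with the principal transcript. Signs turned for Yy1 with Gm42418 as a covariate (0.024) and for Slc25a5 without WT replicate 2 (-0.0029) or WT replicate 3 (-0.020), its range with single libraries left out reaching from -0.020 to 0.094. The cause was not tested for any of these. The count of 1 was Atp5e with Gm42418 as a covariate, at a log2 fold change of 0.18 against -0.17 as reported. Among the 84 members the sign turned for 32 with Gm42418 as a covariate, for 11 with limma-voom and quality weights, for 19 without WT replicate 1 and for 6 to 11 with another single library left out. For the 27 genes followed singly (the 12 members and the 15 genes of other lists named by smallest p), 564 other values kept their direction and their side of the threshold. Picking genes by smallest p favours a sign that stays, and their adjusted p lay far from the threshold. The 564 values therefore say little about how stable the other members were. In addition, 77 other counts and medians stayed within 1.5 times the reported count or within the spread between libraries.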
